A study of Homo sapiens with 18 samples.

Results

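The 8 features described here are annotated genes whose most abundant transcript lies, on the other DNA strand, across exons of a well-known messenger RNA (mRNA) gene. They are AC006064.4 opposite GAPDH, AC011603.2 opposite TUBA1B, SH3D19 opposite RPS3A, AL138963.3 opposite TPT1, AC067930.2 opposite EEF1D, VIM-AS1 opposite VIM, AC093484.3 opposite UBB and AC015674.1 opposite KPNB1. They are 8 of the 57865 genes in the series, and they were chosen by measured values, namely high TPM or a change in vesicles of the knockout cells in these same libraries. Their levels, and their differences between vesicle groups and between vesicles and cells, are therefore given as descriptions without a test. Their differences among the cell groups, and the values of the mRNA genes opposite, were not grounds for the choice and were tested. The choice was, however, made with earlier results of these data known.

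RNA was sequenced from HEK293T, a long-established line of human embryonic kidney origin, and from its extracellular vesicles (EVs), the membrane-bound particles that cells release. The series holds 18 total RNA libraries in 6 groups of 3: EVs and cells of wild-type HEK293T, of an ATG7-/- line (clone F2) and of an ATG12-/- line (clone D9), so that each knockout is represented by 1 clone. All groups, wild type included, had been kept without serum for 24 h. ATG7 is the activating enzyme that starts LC3 and ATG12 conjugation in autophagy, and ATG12 is part of the complex that completes LC3 conjugation to lipid. The labels call the 3 libraries of a group biological replicates but do not say that they came from separate cultures, so the p-values measure only the spread between these libraries.

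An antisense transcript is RNA made from the DNA strand opposite a gene, and its spliced sequence is complementary to the mRNA wherever both hold the same bases. Some antisense transcripts change the stability or production of the mRNA they face, and many have no known function. The mRNAs faced here encode proteins of basic cell upkeep: a glycolytic enzyme (GAPDH), an alpha-tubulin (TUBA1B), a protein of the small ribosomal subunit (RPS3A), translationally controlled tumour protein (TPT1), a subunit of the exchange factor of translation elongation (EEF1D), the intermediate filament vimentin (VIM), polyubiquitin (UBB) and importin beta (KPNB1). Where the whole sequence of a read lies in both, whether it comes from a feature or from the mRNA opposite can be told only by its strand. The library kit keeps strand, but the strand setting behind the deposited values is not given in the sources used here. Such reads of the features and of their opposite mRNAs therefore cannot be told apart with certainty in any value below. Had the setting been opposite to the kit's orientation, mRNA reads over shared bases would be credited to the feature and reads of the feature to the mRNA gene, so the 2 values of a pair would be exchanged in part; which setting was used was not tested.

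Values are TPM, a share of each library scaled by transcript length that adds up to 1000000 over all transcripts, summed here per gene. They measure neither the RNA content of a vesicle or cell nor the number of vesicles or cells, and less RNA from fewer of them cannot be told apart from less RNA in each. In the annotation used to sum the values, GENCODE 29 on GRCh38, 7 of the 8 features are typed antisense, and SH3D19 is a protein-coding gene for an adapter with SH3 domains. HEK293T markers were present: IGF2BP1 was above 1 TPM in 18 libraries, IGF2BP3 in 17, and ZIC2 and NEFM in 16 each, but LIN28B in only 12. Of markers of other cell types, ALB was listed at 0 in all libraries, HBA2 and PECAM1 were each above 1 TPM in 1 library and PTPRC in 6, while COL1A1 was above 1 TPM in 17. ATG7 RNA lay at 8.06 to 12.9 TPM in ATG7-/- cells and 8.14 to 13.1 in wild-type cells, and at 11.2 to 15.6 and 13.3 to 19.4 in the EVs. ATG12 RNA lay at 5.18 to 9.18 TPM in ATG12-/- cells and 7.61 to 13.5 in wild-type cells, and at 0 to 0.858 and 0.844 to 22.6 in the EVs. Each of these pairs of ranges overlapped, so the RNA of the targeted gene does not separate the groups, and the group names below are those of the labels.

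The features share an arrangement at the level of the transcript. The most abundant transcript of each accounted for nearly all of its gene's TPM in 7 of the 8, and for 72.6% in AC011603.2. In 5 of the 8 (AC006064.4, AC011603.2, AL138963.3, AC093484.3 and AC015674.1) every base of it lay opposite exons of the mRNA gene. The share was 69.8% for VIM-AS1, 68.9% for AC067930.2 and 52.1% for SH3D19. Of the 8 introns annotated in 7 of these transcripts, 0 were an intron of the opposite gene read from the other strand.

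**Figure D1:**
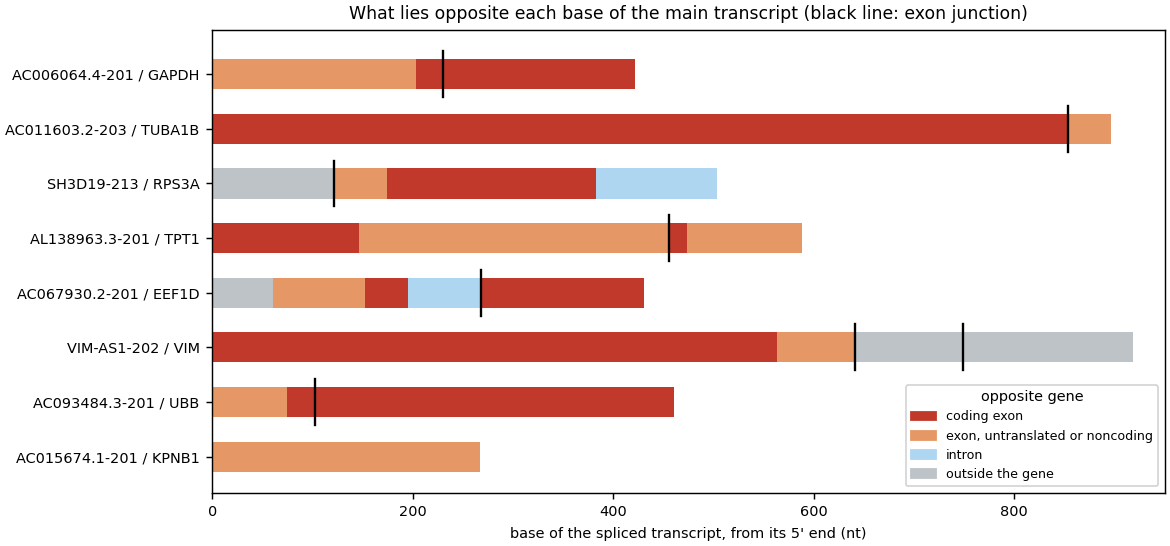
Each bar is the main transcript of a feature, drawn to scale from its 5′ end in nucleotides and coloured by what the opposite mRNA gene has at each base, with black lines at exon junctions. In 5 transcripts all bases face exons, taken over all annotated transcripts of the mRNA gene. SH3D19-213, AC067930.2-201 and VIM-AS1-202 also have bases that face an intron or lie outside the mRNA gene.

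AC006064.4 (ENSG00000269968, chr12:6537794-6538370, minus strand) has 1 transcript of 422 nt in 2 exons, 51.9% of it opposite coding exons of GAPDH and 48.1% opposite untranslated or noncoding exon sequence. The stretch across its exon junction is shown with the GAPDH mRNA over the same bases, because the 2 sequences show how the arrangement works. The feature is read from bases 201 to 260 of AC006064.4-201 (chr12:6538141-6538170 and chr12:6537956-6537985, minus strand) and opens with the reverse complement of the GAPDH stop codon. Its capitals mark the second exon. The mRNA is read from bases 772 to 831 of GAPDH-211 (chr12:6537956-6537996 and chr12:6538101-6538119, plus strand), with the bases complementary to those capitals in capitals. The sequences, like those that follow, are GENCODE 29 transcript sequences written 5′ to 3′.
AC006064.4: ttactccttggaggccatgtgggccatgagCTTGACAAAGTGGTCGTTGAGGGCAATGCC
GAPDH: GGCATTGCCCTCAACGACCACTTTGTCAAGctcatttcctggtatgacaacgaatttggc
Shortly past the capitals the sequences part. The intron of the feature spans 155 bases and is not the intron of GAPDH. Over windows of 50 bases, the read length of the libraries, 329 of the 373 windows of AC006064.4-201 (88.2%) were found reverse-complemented in a GAPDH transcript, and none in the same orientation in another gene.

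AC093484.3 (ENSG00000265401, chr17:16382152-16382669, minus strand) has the same layout opposite UBB, whose mRNA encodes ubiquitin units in tandem. Its 1 transcript of 461 nt lies 83.7% opposite coding sequence. Bases 73 to 132 (chr17:16382568-16382597 and chr17:16382481-16382510, minus strand) open with the reverse complement of the UBB stop codon, and the capitals mark the second exon. The intron between them spans 57 bases, all of which are exon in UBB.
AC093484.3: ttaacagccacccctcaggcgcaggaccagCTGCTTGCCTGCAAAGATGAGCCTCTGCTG
Of its 412 windows of 50 bases, 367 (89.1%) were found reverse-complemented in UBB, and 145 (35.2%) also in UBB pseudogenes.

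AL138963.3 (ENSG00000273149, chr13:45340039-45341183, plus strand) has 1 transcript of 588 nt opposite TPT1, 27.9% of it opposite coding exons. Bases 87 to 146 (chr13:45340125-45340184, plus strand) all face exons of the most abundant TPT1 transcript in these libraries, and are therefore all in capitals.
AL138963.3: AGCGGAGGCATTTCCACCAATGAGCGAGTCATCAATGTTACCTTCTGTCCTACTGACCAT
Its 557-base intron is exon sequence of TPT1 throughout.

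SH3D19 (ENSG00000109686, chr4:151102751-151325632, minus strand) is the exception in length, a gene of 13 annotated transcripts that runs far past RPS3A. A single short noncoding transcript of it, SH3D19-213 (503 nt, 2 exons), reaches RPS3A, and it carried 99.98% of the gene's TPM. Of this transcript, 52.1% faces RPS3A exons and 23.9% faces an RPS3A intron. Bases 354 to 413 (chr4:151102841-151102900, minus strand) cross that boundary: the capitals face a coding exon of RPS3A and the lower case faces the intron.
SH3D19: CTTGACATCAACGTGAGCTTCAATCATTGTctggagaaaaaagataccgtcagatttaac
The other 12 transcripts, among them those that encode the adapter protein, share no base with RPS3A exons, and none had a mean above 4.81 TPM in EVs or 0.383 TPM in cells. The level of SH3D19 in this table is thus the level of 1 transcript opposite RPS3A and not of the SH3D19 mRNA.

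VIM-AS1 (ENSG00000229124, chr10:17214239-17229985, minus strand) faces the 5′ part of VIM. Bases 504 to 563 of VIM-AS1-202 (chr10:17229423-17229482, minus strand) end in capitals at the reverse complement of the VIM start codon.
VIM-AS1: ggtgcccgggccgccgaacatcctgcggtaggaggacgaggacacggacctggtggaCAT
VIM-AS1-202 (918 nt, 3 exons) carried nearly all of the gene's TPM, and the other transcript, VIM-AS1-201 (1351 nt), which shares no base with VIM exons, had a mean of 0.0424 TPM in EVs.

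The remaining features are described without a printed sequence. AC011603.2 (ENSG00000258017, chr12:49127782-49147869, plus strand) has 5 transcripts; AC011603.2-203 (897 nt) lies wholly opposite TUBA1B, 95.2% of it opposite coding sequence. Of its 848 windows of 50 bases, 806 were found reverse-complemented in TUBA1B, and 665 (78.4%) also in other genes, mainly the related tubulin genes TUBA1A and TUBA1C. Of the same 848 windows, 130 (15.3%) were also found in the same orientation in AC125611.3, a feature opposite TUBA1C, so the split of reads between these 2 features is uncertain. AC067930.2 (ENSG00000254741, chromosome 8, plus strand, 431 nt) lies wholly inside AC067930.6, an uncharacterised gene on the same strand that holds 336 of its 382 windows (88.0%), so its level is uncertain in the same way. AC015674.1 (ENSG00000264558, chr17:47682417-47682683, minus strand) is a single exon of 267 nt opposite untranslated or noncoding exon sequence of KPNB1.

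Across all 25 transcripts of the 8 features, those with any base opposite exons of the mRNA gene had higher levels than those with none. The 11 transcripts with bases opposite exons of the mRNA gene had means of at least 382 TPM in EVs and 285 TPM in cells. The 14 transcripts with no such base had means of at most 4.81 TPM in EVs and 0.383 TPM in cells. Those 14 belong to only 3 of the features (12 to SH3D19, 1 to VIM-AS1 and 1 to AC011603.2). The features had been picked for high levels and for a main transcript opposite the mRNA gene. That choice fixed much of the split in advance, so the split is only a description. Within AC011603.2, transcripts 201 to 204 face TUBA1B, in whole or in part, and AC011603.2-205, which does not, was listed at 0 in all 18 libraries. Among transcripts with such bases, the share opposite did not order the levels. In EVs the highest mean, 35986.5 TPM, was that of SH3D19-213 (52.1% opposite). AC011603.2-204 (50.5%) had 1427 TPM, above AC011603.2-201 and AC011603.2-202 (382 and 570, both 100%) and below AC011603.2-203 (6905, 100%).

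**Figure D2:**
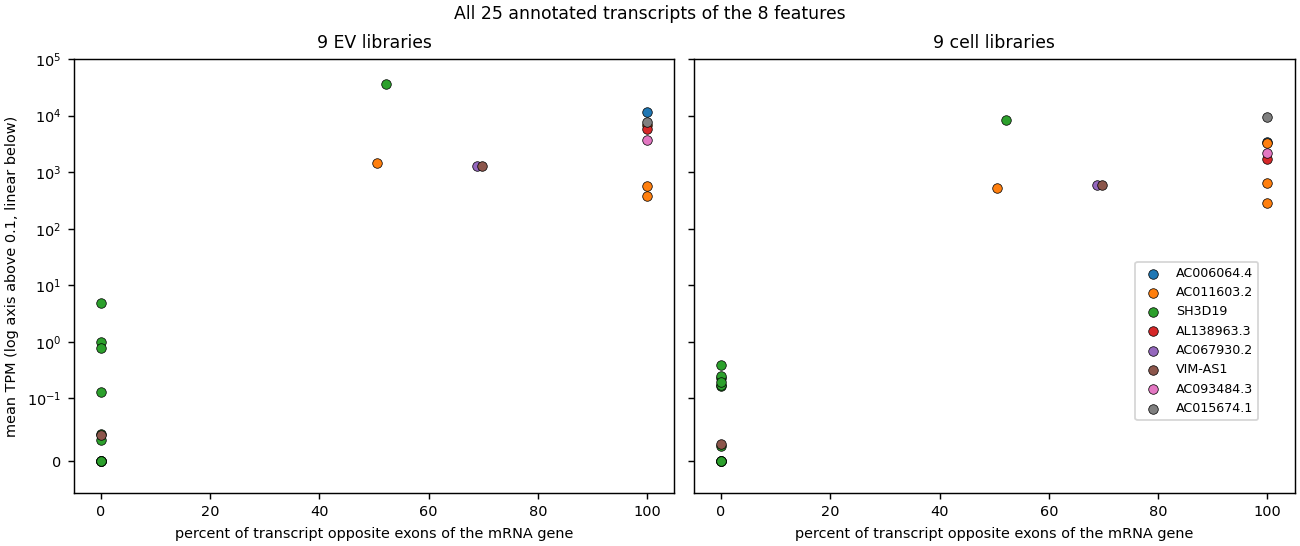
Each point is 1 of the 25 annotated transcripts, with the percent of its bases opposite exons of the mRNA gene on the x axis and its mean TPM over 9 libraries on the y axis (log above 0.1 TPM, linear below). The 14 transcripts with no base opposite sit at or below 4.81 TPM, and the 11 others at or above 285 TPM. The choice of the features fixed much of this split in advance.

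As deposited, all 8 features ranked above all 8 mRNA genes by mean TPM, in EVs and in cells. An opposite strand setting would turn this order at least in part. Together the features made up 5.77 to 9.25% of all TPM in EV libraries and 2.38 to 3.78% in cell libraries. The 8 mRNA genes made up 0.198 to 0.239% and 0.0261 to 0.0697%. By mean TPM, SH3D19 ranked 3 among the 26969 genes above 0 in EVs, AC006064.4 ranked 11, AC011603.2 ranked 16, AC015674.1 ranked 20, AL138963.3 ranked 26 and AC093484.3 ranked 37, and AC067930.2 and VIM-AS1 ranked 87 and 88. Among 33953 genes in cells the order differed, with AC015674.1 ranked 12, ahead of SH3D19 at 18, and AC067930.2 and VIM-AS1 ranked 158 and 167. The mRNA genes ranked from 166 (UBB) to 1523 (VIM) in EVs and from 479 (UBB) to 3879 (VIM) in cells. The name "abundant mRNA" is used for them as known genes, and in this table each stood below all 8 features.

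In each of the 18 libraries, the deposited value of each of the 8 features was above that of the mRNA gene opposite. Under an opposite strand setting these ratios would be read, in part, the other way round. SH3D19 and RPS3A had the highest median ratio in both EVs and cells: the ratio of their TPM had a lowest value of 95.9, a median of 142 and a highest of 209 in EVs, and 169, 269 and 375 in cells. AC011603.2 was 37.0 to 69.9 times TUBA1B in EVs and 97.1 to 209 times in cells. The narrowest margins were those of AC067930.2 over EEF1D, with medians of 6.07 in EVs and 8.11 in cells, and of AC093484.3 over UBB, with medians of 6.64 and 10.7. In 5 of the 8 pairs (AC006064.4, AC011603.2, AL138963.3, AC093484.3 and AC015674.1) every EV library had a lower ratio than every cell library. These ratios are of 2 values of a library and were not tested. The same count was not made over other pairs of genes, so nothing is read from it. The highest ratio in any library, 597 for AC015674.1 over KPNB1 in wild-type cell replicate 3, stands beside the lowest KPNB1 value of the series (13.6 TPM).

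**Figure D3:**
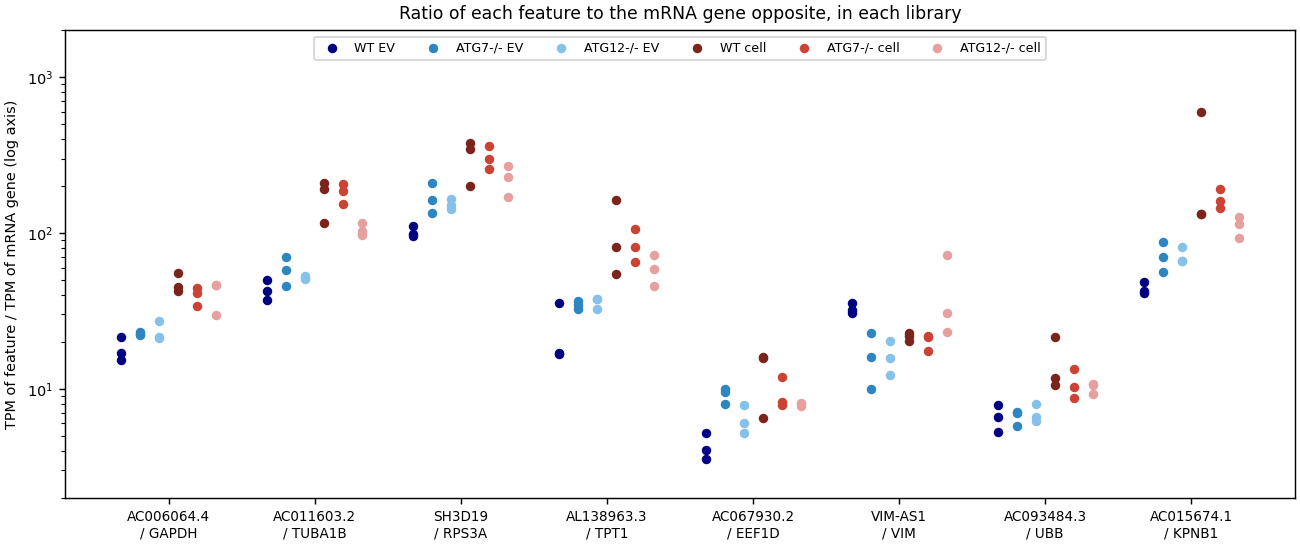
Points are the TPM of a feature divided by the TPM of the mRNA gene opposite, on a log axis, 1 point per library and 1 colour per group of 3. The lowest point is 3.55, and in 5 of the 8 pairs the EV points lie wholly below the cell points. Other pairs of genes were not counted for comparison.

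Of the mRNA genes, 5 take nearly all of their TPM from transcripts that overlap the feature (GAPDH 99.6%, TUBA1B 99.8%, RPS3A 100%, TPT1 96.7% and VIM 95.5%). For EEF1D the share was 54.1%, for UBB 41.0% and for KPNB1 26.8%. The most abundant transcripts of EEF1D, UBB and KPNB1 themselves share 0 bases with the feature. That of TPT1 faces 253 of the 588 bases of AL138963.3.

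EVs were then set against cells over the 3 genotypes, the comparison that asks which RNAs are relatively more abundant in vesicles. All 8 mRNA genes were higher in EVs, from 0.78 ± 0.25 (SE) on the log2(TPM + 1) scale for KPNB1 to 2.74 ± 0.17 for RPS3A (limma, adjusted p = 0.0193 and 1.54e-08). Of all genes tested, 7.66% were called higher and 36.4% lower. In 7 of the 8, all EV values lay above all cell values, as they did for 1.95% of genes tested: GAPDH ranged from 432 to 789 TPM in EVs and from 56.1 to 136 in cells (2.47 ± 0.13, adjusted p = 2.4e-09), and TPT1 from 87.0 to 292 and from 8.81 to 31.4 (2.69 ± 0.21, adjusted p = 1.91e-07). KPNB1 ranged from 90.9 to 199 TPM in EVs and from 13.6 to 90.9 in cells, and its call was lost with library weights (adjusted p = 0.058), without replicate 1 (0.117) and without replicate 2 (0.053). In a list of 30 other housekeeping mRNAs, 26 were called higher in EVs and 0 lower, with a median of 1.29 against -0.61 over all genes. Leaving out the scaling of libraries raised the median of all genes in this comparison by 0.137, and the medians of the mRNA genes and the features to 2.09 and 1.09.

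Among the features, 7 of 8 were higher in EVs and AC015674.1 was lower, with and without the scaling. The median over the 8 was 0.80 on the log2 scale, below the 1.80 of the mRNA genes opposite. SH3D19 differed most, with 22338 to 44738 TPM in EVs and 6562 to 10624 in cells (1.80 ± 0.06), followed by AC006064.4 (1.47 ± 0.05) and AL138963.3 (1.41 ± 0.07). For 5 features the 9 EV values all lay above the 9 cell values, which held for 1.95% of genes tested. Since high TPM and change in knockout EVs were grounds for picking them, nothing is read from that count. AC067930.2, VIM-AS1 and AC015674.1 overlapped. AC015674.1 had a lowest value of 6048, a median of 7499 and a highest of 8846 TPM in EVs, and 6532, 9515 and 12398 in cells (-0.60 ± 0.07, and -0.31 without the scaling). In wild type its mean was 7760 ± 647 TPM (SD, n = 3) in EVs and 7716 ± 1039 in cells, against 11508 ± 771 in ATG7-/- and 9174 ± 611 in ATG12-/- cells.

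**Figure D4:**
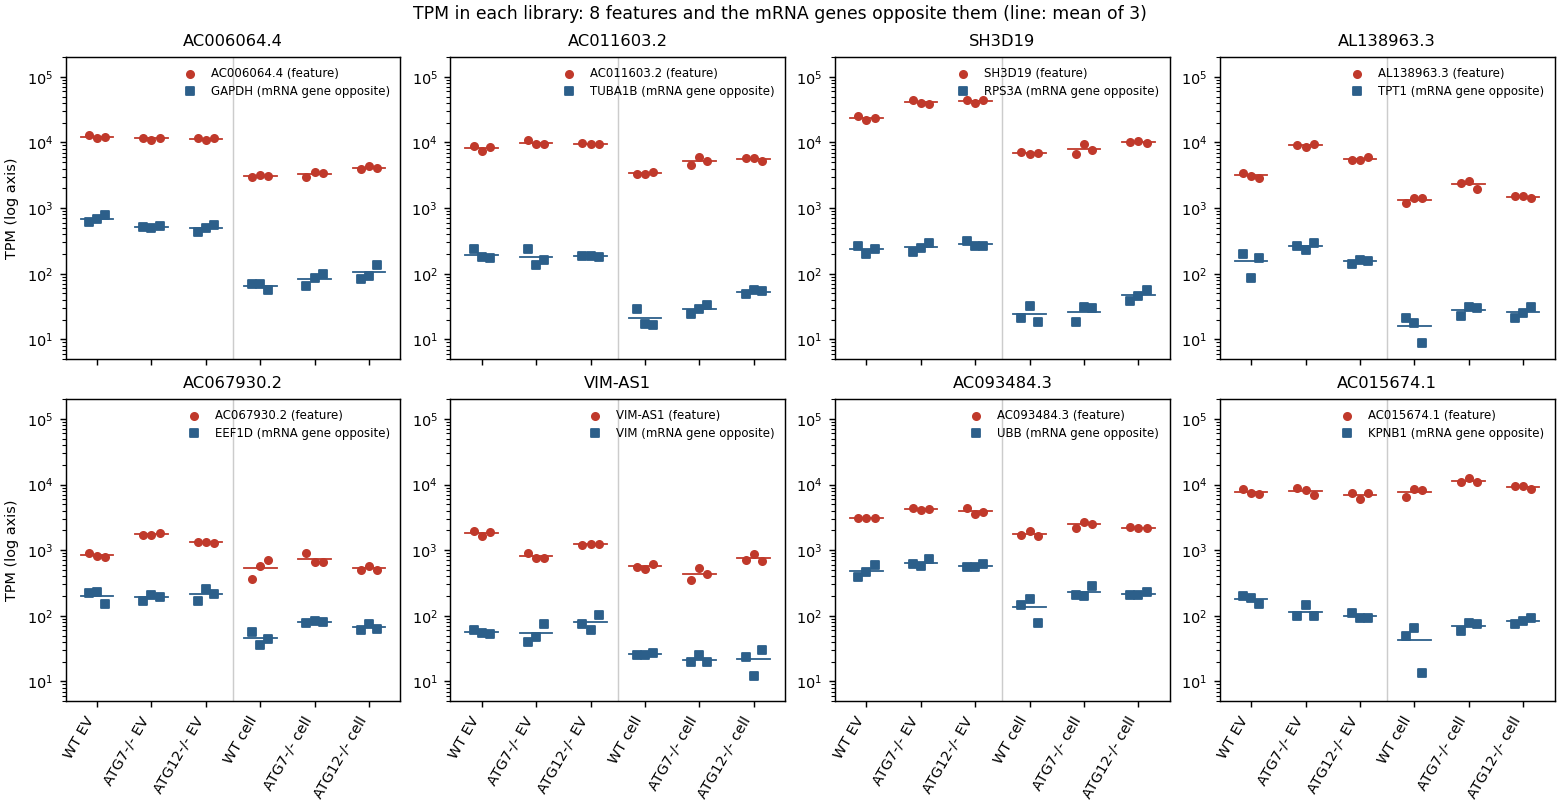
Points are TPM on a log axis in each of the 3 libraries of each group, for the feature (circles) and for the mRNA gene opposite (squares), with the group mean as a line. Each feature lies above its mRNA gene in all 18 libraries, and EV values stand above cell values for 7 of the 8 features by mean, with AC015674.1 the other way.

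The EVs of the knockout lines were compared with wild-type EVs, the comparison at the centre of the series, to ask whether loss of LC3 conjugation changes vesicle RNA. Both knockout comparisons share the 3 wild-type EV libraries. Among the mRNA genes opposite, 0 of 8 passed in ATG7-/- EVs and 0 of 8 in ATG12-/- EVs (limma, with 2 and 1 at an unadjusted p under 0.05), where 0.141% and 0.105% of all genes passed and 7.41% and 7.94% had such a p. Their medians were 0.02 and 0.17 on the log2 scale, against 0.00 and -0.08 over all genes. The features are described below, beside the mRNA genes they face. For 6 of the 8 the knockout values lay apart from wild type in both comparisons, which held for 13.9% and 11.3% of genes tested; since change in knockout EVs was a ground for picking them, nothing is read from that count.

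AL138963.3, opposite TPT1, had the widest difference among the features in ATG7-/- EVs on the log2 scale. It stood at 3402, 3114 and 2903 TPM in wild-type EVs, at 9114, 8425 and 9510 in ATG7-/- EVs and at 5343, 5342 and 5956 in ATG12-/- EVs. The 3 groups were apart, with ATG7-/- highest (1.62 ± 0.11 and 0.90 ± 0.11 against wild type). TPT1 itself, a conserved protein that binds calcium and tubulin, was at 201, 87.0 and 173 TPM in wild-type EVs, at 264, 231 and 292 in ATG7-/- EVs and at 142, 164 and 158 in ATG12-/- EVs. Its ATG7-/- values were all above wild type but did not pass (0.94 ± 0.34, limma, adjusted p = 0.56).

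SH3D19, in effect its transcript opposite RPS3A, stood at 25503, 22338 and 23267 TPM in wild-type EVs. ATG7-/- EVs had 44738, 40271 and 38978 TPM and ATG12-/- EVs had 44528, 40201 and 44114. The knockout groups overlapped each other and lay wholly above wild type (0.90 ± 0.08 and 0.93 ± 0.08). RPS3A was at 266, 201 and 236 TPM in wild-type EVs, at 214, 249 and 292 in ATG7-/- EVs and at 315, 267 and 269 in ATG12-/- EVs, and did not pass in either (0.20 ± 0.25, adjusted p = 0.917, and 0.35 ± 0.25, adjusted p = 0.778, limma).

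For AC067930.2, opposite EEF1D, wild-type EVs had 904, 818 and 774 TPM. ATG7-/- EVs had 1690, 1685 and 1838 TPM, and ATG12-/- EVs 1345, 1330 and 1302. The order of the groups was that of AL138963.3, with differences of 1.16 ± 0.15 and 0.75 ± 0.15. AC067930.6, which holds the same bases on the same strand, was higher by 0.79 ± 0.23 and 0.61 ± 0.23 (limma, adjusted p = 0.393 and 0.573). EEF1D changed by 0.04 ± 0.29 and 0.17 ± 0.29 (limma, adjusted p = 0.991 and 0.912).

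VIM-AS1 went the other way. It stood at 1940, 1664 and 1870 TPM in wild-type EVs, at 911, 759 and 748 in ATG7-/- EVs and at 1179, 1247 and 1254 in ATG12-/- EVs. The 3 groups did not overlap, and both knockouts lay below wild type (-1.08 ± 0.15 and -0.49 ± 0.15). VIM had 60.9, 54.2 and 52.9 TPM in wild-type EVs, 39.7, 47.8 and 74.5 in ATG7-/- EVs and 74.6, 61.5 and 103 in ATG12-/- EVs, with no pass (0.00 ± 0.38, adjusted p = 1, and 0.54 ± 0.38, adjusted p = 0.768, limma). The ratio of VIM-AS1 to VIM was 30.7 to 35.3 in wild-type EVs, 10.0 to 22.9 in ATG7-/- EVs and 12.2 to 20.3 in ATG12-/- EVs. AL133415.1, the other antisense feature opposite VIM (87.7% of its main transcript faces VIM exons), was lower than wild type without overlap in both knockouts (-1.12 ± 0.25 and -0.44 ± 0.25) but did not pass (limma, adjusted p = 0.205 and 0.689).

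AC093484.3, opposite UBB, was close to constant in wild-type EVs at 3137, 3131 and 3140 TPM. It had 4336, 4076 and 4271 TPM in ATG7-/- EVs and 4376, 3607 and 3867 in ATG12-/- EVs, all above wild type (0.53 ± 0.12 and 0.40 ± 0.12). UBB did not pass in either knockout (0.51 ± 0.22, adjusted p = 0.666, and 0.32 ± 0.22, adjusted p = 0.761, limma).

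AC011603.2, opposite TUBA1B, had 8891, 7523 and 8579 TPM in wild-type EVs, 10994, 9532 and 9433 in ATG7-/- EVs and 9676, 9402 and 9539 in ATG12-/- EVs. The knockout values were all above wild type, by 0.36 ± 0.10 and 0.27 ± 0.10. Its transcripts were unequal in this: AC011603.2-204, of which 50.5% faces TUBA1B, had means of 826 ± 252 (SD, n = 3) in wild-type, 1796 ± 320 in ATG7-/- and 1660 ± 107 TPM in ATG12-/- EVs, while AC011603.2-203 had 6722 ± 495, 7133 ± 517 and 6861 ± 264. TUBA1B, a building block of microtubules, had differences of -0.05 ± 0.29 and 0.00 ± 0.29 (limma, adjusted p = 0.991 and 1).

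AC006064.4 and AC015674.1 overlapped with wild type in both knockouts. AC006064.4, opposite GAPDH, had 13007, 11565 and 12001 TPM in wild-type EVs, 11877, 11024 and 11816 in ATG7-/- EVs and 11740, 10883 and 11722 in ATG12-/- EVs (0.02 ± 0.09 and -0.01 ± 0.09). GAPDH was lower than wild type without overlap in both, at 604, 685 and 789 TPM in wild-type EVs, 515, 492 and 536 in ATG7-/- EVs and 432, 503 and 556 in ATG12-/- EVs, but did not pass (-0.33 ± 0.19, adjusted p = 0.755, and -0.40 ± 0.19, adjusted p = 0.645, limma).

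AC015674.1, opposite KPNB1, had 8485, 7550 and 7244 TPM in wild-type EVs, 8846, 8171 and 6849 in ATG7-/- EVs and 7467, 6048 and 7499 in ATG12-/- EVs. KPNB1, which carries proteins into the nucleus, was likewise lower without overlap in both knockouts and did not pass (-0.55 ± 0.30, adjusted p = 0.727, and -0.77 ± 0.30, adjusted p = 0.596, limma). The housekeeping list had 0 of 30 called in either knockout (8 and 5 at an unadjusted p under 0.05), with medians of -0.06 and 0.00. Its members with the highest mean TPM, EEF2 and NPM1, have no feature opposite in the annotation. Neither have members with low means, such as RPL3 (140 TPM in EVs) and HSPA5 (11.8 TPM in EVs). EEF2, the elongation factor that moves the ribosome, was at 13628 to 24584 TPM in EVs.

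The cells of the knockout lines were compared with wild-type cells, a contrast that was not a ground for choosing the features. In ATG7-/- cells 0 of 8 features passed (limma, 4 at an unadjusted p under 0.05), where 0.2% of all genes passed and 14.4% had such a p. In ATG12-/- cells 0 of 8 passed (5 at an unadjusted p under 0.05), where 0.134% passed and 15% had such a p. The features lay wholly above wild type in 4 cases in ATG7-/- cells and in 5 in ATG12-/- cells, as did 8.15% and 10.7% of all genes. The differences were mostly above 0: 7 of 8 in ATG7-/- cells with a median of 0.55 on the log2 scale, and 8 of 8 in ATG12-/- cells with a median of 0.40, against medians of -0.07 over all genes in both. The housekeeping list lay there too, with 27 and 29 of 30 above 0, medians of 0.56 and 0.82, and 0 called (12 and 18 at an unadjusted p under 0.05). So did the mRNA genes opposite, with 7 of 8 above 0 in both, medians of 0.73 and 0.78, and 0 called (4 and 6 at an unadjusted p under 0.05). Both comparisons share the 3 wild-type cell libraries.

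AC011603.2 came nearest to the threshold in both lines. It stood at 3325, 3336 and 3493 TPM in wild-type cells, at 4479, 5997 and 5206 in ATG7-/- cells and at 5746, 5857 and 5279 in ATG12-/- cells. All 3 libraries of each knockout were above all 3 of wild type, with differences of 0.69 ± 0.13 and 0.76 ± 0.13 (limma, adjusted p = 0.0865 and 0.0918). TUBA1B had 28.7, 17.4 and 16.7 TPM in wild-type cells, 24.1, 29.1 and 34.0 in ATG7-/- cells and 49.9, 56.6 and 54.4 in ATG12-/- cells. Its ATG12-/- difference, 1.39 ± 0.24, was the largest among the 8 mRNA genes (adjusted p = 0.0918).

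AL138963.3 had 1179, 1426 and 1445 TPM in wild-type cells, 2406, 2572 and 1948 in ATG7-/- cells and 1539, 1514 and 1420 in ATG12-/- cells. ATG7-/- cells lay wholly above wild type (0.84 ± 0.16, limma, adjusted p = 0.0867), and ATG12-/- cells overlapped it (0.18 ± 0.16, adjusted p = 0.639). AC015674.1 had 6532, 8479 and 8136 TPM in wild-type cells, 11054, 12398 and 11072 in ATG7-/- cells and 9515, 9540 and 8469 in ATG12-/- cells, with differences of 0.65 ± 0.15 and 0.29 ± 0.15 (limma, adjusted p = 0.122 and 0.401). AC093484.3 lay above wild type without overlap in both, by 0.55 ± 0.14 and 0.35 ± 0.14 (limma, adjusted p = 0.162 and 0.317).

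SH3D19 had 7234, 6562 and 6806 TPM in wild-type cells, 6657, 9342 and 7711 in ATG7-/- cells and 10223, 10624 and 9705 in ATG12-/- cells. Only the ATG12-/- values stood apart (0.60 ± 0.13, limma, adjusted p = 0.138). AC006064.4 showed the same layout, with 2938, 3169 and 3090 TPM in wild-type cells, 2931, 3607 and 3402 in ATG7-/- cells and 3920, 4305 and 4031 in ATG12-/- cells (0.45 ± 0.12, adjusted p = 0.186). VIM-AS1 had 549, 521 and 623 TPM in wild-type cells, 351, 535 and 426 in ATG7-/- cells and 715, 872 and 693 in ATG12-/- cells, so that ATG12-/- cells lay above wild type (0.46 ± 0.19, limma, adjusted p = 0.308), whereas ATG12-/- EVs lay below wild-type EVs. AC067930.2 ranged from 367 to 916 TPM over the cell libraries, and its groups overlapped.

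Whether a change in EVs differed from the change in cells was tested for the mRNA genes opposite, in a contrast added after the data were seen. In ATG7-/- 0 of 8 and in ATG12-/- 0 of 8 passed (limma over all 18 libraries, with 1 and 4 at an unadjusted p under 0.05), where 0.284% and 0.268% of all genes passed and 8.91% and 10.1% had such a p. In ATG7-/- the difference was below 0 for 5 of 8 mRNA genes (median -0.27). There, 20 of 30 housekeeping genes (median -0.51) and 10112 of all 24647 genes (median 0.22) were below 0. In ATG12-/- the difference was below 0 for 7 of 8 mRNA genes, with VIM the exception (1.15 ± 0.49, adjusted p = 0.445), and their median was -0.33. The housekeeping list lay there too, with 22 of 30 below 0 and a median of -0.55, against a median of 0.19 over all genes, of which 10539 of 24647 were below 0. The features, given without a test, split 5 above and 3 below 0 in ATG7-/-, and evenly in ATG12-/-. In ATG12-/- the change in EVs exceeded that in cells for AL138963.3 (1.03 ± 0.18), AC067930.2 (1.03 ± 0.30), SH3D19 (0.65 ± 0.14) and AC093484.3 (0.37 ± 0.17), and fell short of it for the other 4.

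**Figure D5:**
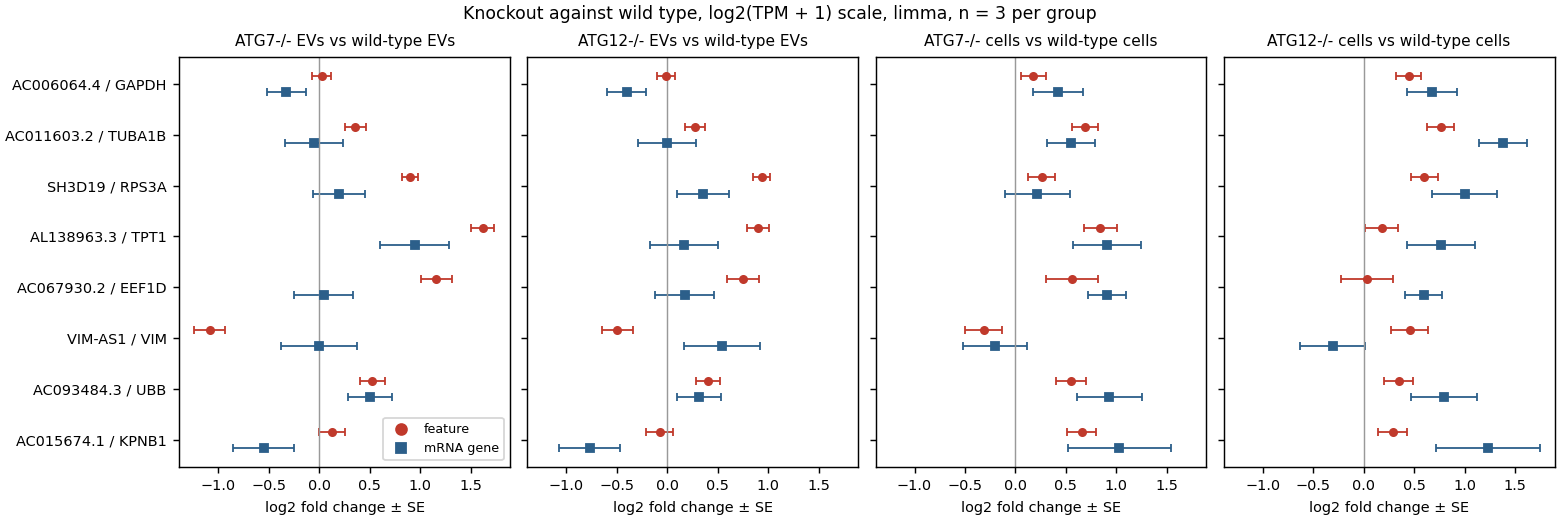
Points are log2 fold changes of knockout against wild type with limma's standard error (n = 3 per group), for each feature (circles) and the mRNA gene opposite (squares). In EVs the features range from -1.08 to 1.62 and from -0.49 to 0.93; in cells nearly all features and mRNA genes lie above 0, with none past the adjusted threshold in either line.

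Arrangements of this kind are not limited to the 8 pairs. Averaged over the 18 libraries, 101 genes reached 1000 TPM, and 22 of them (21.8%) had a main transcript of which at least 50% faced exons of a protein-coding gene. Since 6 of the 22 are features picked for high TPM, the share without them is 16 of 95 (16.8%). Of the 11793 other genes that averaged from 5 TPM to below 1000 TPM, 1034 (8.77%) had such a transcript. Of the 30 housekeeping genes, 10 had a feature opposite in the annotation. AL662797.1, opposite the beta-tubulin gene TUBB, had a mean of 1983 TPM in EVs and 1036 in cells, against 73.5 and 29.7 for TUBB. AC125611.3, opposite TUBA1C, had 1585 and 739 TPM, against 274 and 129. AC093512.1, all of which faces ALDOA, ran the other way, at 64.9 and 49.6 TPM against 320 and 115 for the mRNA gene.

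AC125611.3 was the only one of these other features to pass in a knockout comparison. It lay at 463 to 483 TPM in wild-type cells and at 956 to 1006 in ATG12-/- cells, above wild type in 3 of 3 libraries (1.07 ± 0.14, limma, adjusted p = 0.0483). The call was lost without the filter on low values (adjusted p = 0.0774), with library weights (0.0891) and with any single library of the comparison left out (0.0988 to 0.21).

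The genes with the most similar pattern were found for each feature as the smallest root mean square difference of log2 values over the 18 libraries, with each gene centred on its own mean, among the 11242 genes that averaged 5 TPM or more and had at least 1 TPM in at least 3 libraries. Nearest to AC011603.2 was AL662797.1, the feature opposite TUBB (0.14 on the log2 scale), and then AC009133.2, opposite MAZ (0.18). The second nearest to VIM-AS1 was AL133415.1, the other feature opposite VIM (0.24), after MTR (0.21). AC093484.3 was nearest to AC009133.1 (0.13), also opposite MAZ, and AC006064.4 to the ribosomal protein gene RPL4 (0.19). The 2 nearest to SH3D19 (AL354740.1 and AC133539.1), to AL138963.3 (AC005062.1 and AC026785.2) and to AC067930.2 (ANKRD19P and PTMS) had 0% of the main transcript opposite such exons. Of the 16 nearest genes, 5 had a main transcript at least 50% opposite exons of a coding gene. Of the 11888 genes other than the features that averaged 5 TPM or more, 1050 (8.83%) had at least 50% opposite exons of coding genes. The difference between these shares was not tested. The mRNA gene opposite was among neither of the 2 nearest for any feature. It ranked 253 (RPS3A), 340 (EEF1D), 411 (GAPDH), 459 (VIM), 517 (UBB) and 827 (TPT1) in 6 lists, and 2655 (TUBA1B) and 3301 (KPNB1) in the others.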

How the data were processed

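The authors deposited 1 table of TPM for 203027 transcripts in 18 libraries, and each library sums to 1000000. Per the submitters' processing notes Salmon 0.14 and DESeq2 were used, with no role stated. The sources used here do not name the genome build, the annotation or the strand setting. Per the labels' protocols, a stranded kit was used with 22 cycles of amplification, followed by single-end reads of 50 bases. TPM hold no depth, so depth per library is unknown and no counting interval can be given.

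Here, 202941 transcript identifiers were matched to GENCODE 29 (86 were not, at most 0.0384% of a library) and summed to 57865 genes. Coordinates are those of GENCODE 29 on GRCh38. Median-of-ratios factors scaled the libraries. Genes that reached 1 TPM in at least 3 fitted libraries entered limma 3.58.1 (R 4.3.3) as log2(TPM + 1), with trend and no replicate block, and p-values were adjusted by Benjamini-Hochberg over all genes tested (two-sided, threshold 0.05). This scale understates changes of low values. Knockouts were tested within the 9 EV or the 9 cell libraries, and EVs against cells over all 18. Values ± SE are log2 fold changes; printed TPM are as deposited. The procedure was tested on simulated data.

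Named are the 8 features, the mRNA genes opposite, other features opposite those genes from 5 TPM, the housekeeping list of 30 with its opposite features, and the 2 genes nearest to each feature. The features and lists were chosen with earlier results of these data known. Same-numbered libraries of different groups did not deviate together (correlations from -0.034 to 0.026), so the numbers were taken as names. Alternatives were another pseudocount (0.1), no filter, no scaling, a replicate block, library weights without trend, no transcripts under 200 nt, and each library left out.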

Additional observations from a re-analysis of the deposited data

Results flagged for a closer look

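Among the features, the mRNA genes opposite and the housekeeping list, 7 genes had every ATG12-/- library below wild type in EVs and above it in cells: VIM-AS1, GAPDH, KPNB1 and, from the housekeeping list, ACTB, ENO1, HSPA5 and RPLP0. Of all genes tested, 6.99% lay wholly below wild type in ATG12-/- EVs and 10.7% wholly above it in ATG12-/- cells. The share of all genes that did both was not counted, so nothing is read from the 7. For VIM-AS1, ATG12-/- EVs had 1179 to 1254 TPM against 1664 to 1940 in wild type, while ATG12-/- cells had 693 to 872 TPM against 521 to 623. Its change in EVs minus its change in cells was -0.64 on the log2 scale, and since the feature was picked with its EV values known, this difference was not tested.

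GAPDH had a difference of -0.77 ± 0.31 (SE). KPNB1 had a difference of -1.69 ± 0.61. Neither passed when the difference itself was tested (limma over all 18 libraries, adjusted p = 0.435 and 0.367, a contrast chosen after seeing the data). The 4 housekeeping genes had differences of -1.16 (ACTB), -1.13 (ENO1), -0.95 (HSPA5) and -1.27 (RPLP0), and none passed the same test (limma, adjusted p from 0.138 to 0.567). In ATG7-/-, AC125611.3 was below wild type in EVs and above it in cells without overlap, with a difference of -0.76 that did not pass (limma, adjusted p = 0.177).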

How the results depend on the processing

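Counts of called genes were 24 (ATG7-/- EVs), 18 (ATG12-/- EVs), 45 (ATG7-/- cells), 30 (ATG12-/- cells) and 10871 (EVs against cells). Without the filter the EV counts were 8 and 5, and with library weights ATG12-/- EVs had 4; the cause was not tested. With the replicate number as a block the 4 knockout counts were 9, 3, 13 and 12, and EVs against cells had 10697; the numbers are shared only as names, and of the named genes' calls the block ended only that of AC125611.3 (adjusted p = 0.151). Leaving out 1 library gave 5 to 15, 5 to 18, 5 to 48 and 13 to 30 calls, and leaving out a replicate number gave 7111 to 7774. The 0 of 8 counts of features in cells and of mRNA genes in EVs and cells held under each alternative.

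Among tested values, signs turned only where no call had been made. With all libraries, these were EEF1D in ATG7-/- EVs without scaling (-0.052), and TUBA1B in ATG12-/- EVs (0.00285) and AC067930.2 in ATG12-/- cells (-0.055) with library weights. For the features in comparisons with EVs, where they had no test, turns of sign were not listed in full. AC006064.4 in ATG7-/- EVs went from 0.02 to -0.07 without scaling. With 1 library left out, ATG7-/- EVs gave -0.25 to 0.12 for TUBA1B, -0.15 to 0.17 for EEF1D and -0.27 to 0.22 for VIM. ATG12-/- EVs gave -0.086 to 0.16 for TUBA1B, -0.19 to 0.41 for TPT1, -0.026 to 0.31 for EEF1D and -0.11 to 0.029 for AC125611.3. ATG12-/- cells gave -0.26 to 0.22 for AC067930.2 and -0.55 to 0.059 for VIM, whose value with all libraries was -0.31.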
